A study of Mus musculus with 9 samples.

Results

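Glutamate and GABA carry most of the fast excitation and inhibition in the brain, and the 42 genes described here encode receptor subunits for both transmitters. They were listed by gene name, with earlier results of these data known, and are 42 of the 21938 protein-coding genes of GENCODE M21 on chromosomes 1 to 19, X and Y. By receptor class, 24 are glutamate receptor genes and 18 are GABA receptor genes. Among the first are 4 AMPA, 5 kainate, 7 NMDA, 1 delta and 7 metabotropic receptor genes, and among the second are 16 genes of the GABA-A receptor and 2 of the GABA-B receptor. A gene was counted as reached by a peak when the summit, the point of strongest enrichment, lay inside it or no more than 5 kb outside.

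The data are ChIP-nexus peaks of the glucocorticoid receptor (GR) and the mineralocorticoid receptor (MR) in N2A cells, a mouse neuroblastoma line. ChIP-nexus is chromatin immunoprecipitation in which an exonuclease trims the captured DNA back to the crosslinked protein. All cells had been transiently transfected with both EGFP-GR and mCherry-MR, and GR was captured through EGFP and MR through mCherry, so bound receptor means the tagged receptor from the plasmids. Chromatin was taken after vehicle (i), after corticosterone (CORT, 100 nM for 20 minutes, ii), and after the same CORT pulse followed by 2 washes and 40 minutes in CORT-free medium (washout, iii), with input chromatin for each treatment. The study's methods name rat receptor cDNA in the plasmids whereas the GEO description gives mouse receptors. Each treatment had 3 replicates, which were combined into a single peak list per receptor, so no value here has a replicate error and no difference between treatments or receptors could be tested against replicate spread. The paper also called CORT peaks in single replicates. Far fewer sites were called in at least 2 of the 3 than in the combined lists, above all for GR. The combined lists do not tell which of the peaks described here were among them. The percentages carry 95% Wilson intervals, which cover counting error only.

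AMPA, kainate and NMDA receptors are ion channels opened by glutamate, assembled from several subunits whose mixture sets the permeability and timing of the channel. Metabotropic glutamate receptors and GABA-B receptors act through G proteins, and GABA-A receptors are chloride channels of mixed subunits. GR and MR are transcription factors that CORT brings into the nucleus, where they bind as pairs to the GRE (glucocorticoid response element), an inverted repeat of a short half-site. In limbic neurons, which express both receptors, corticosteroids are known to alter glutamate and GABA transmission.

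After CORT, 6 of the 42 genes were reached by a peak, namely Gria1 and Gria2 (AMPA), Grik3 and Grik5 (kainate), Grin2d (NMDA) and Gabrd (GABA-A). Their peaks fell at 11 separate sites, of which 10 were in introns. The sequence most like a GRE near the summit is printed for the strongest peaks of each gene. It shows how close the DNA around these summits comes to the binding element. The GRE was searched as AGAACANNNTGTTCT, which reads the same on both strands and has 12 fixed positions, and the match had to lie within 100 bp of the summit. Capitals mark the 15 bases aligned to it, written 5′ to 3′ on the plus strand of GRCm38.
Gria2: gccctggGGAACAGCGTGTTCTcttttgg
Grin2d: cccagggAGAGCAGAGAGTGCTtggctct
Grik5, site 2: tgcctacAGGACACAGTGTTGGcaggggg
Grik5, site 3: tttatgtAGCTCAGGCTGGCCTtgaagtc
Grik5, site 5: agagcccAGAGCACTGTGACATgtgtcta
Gria1: tgttccaGCCCCAGTGTGTTCTgtgcaag
Grik3, site 1: agggaagGGCACGCCTGGCTCTgcgttct
Grik3, site 2: tgtatccAGCACAGTGTGTGCCtggccca
Gabrd: ccagagaAAAACAGGGCTGTCTcctgaca
The capitals span chr3:80801202-80801216 in Gria2 and chr7:45847561-45847575 in Grin2d. In Grik5 they span chr7:25057383-25057397 at site 2, chr7:25057596-25057610 at site 3 and chr7:25069817-25069831 at site 5. The others are at chr11:57319619-57319633 in Gria1, chr4:125494357-125494371 and chr4:125501455-125501469 in Grik3, and chr4:155382557-155382571 downstream of Gabrd. In Gria1 and at Grik3 site 1 the match lies outside the peak, centred 81 bp and 65 bp from the summit. Grik3 site 2 was added because it was the site of that gene kept after washout, and Gabrd because it was the GABA receptor gene with a peak.

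Only Gria2 had a close match, with 1 mismatch. Grin2d, Grik5 site 2 and Grik3 site 2 had 3 mismatches each, and the best match at the other 7 sites had 4 or 5. Such matches describe the letters in the window and do not show a bound element. Within 100 bp of the summit, a match with at most 3 mismatches was found at 2 of the 7 GR CORT peaks at these genes (28.6%, 95% interval 8.22% to 64.1%) and at 37.7% of all GR CORT peaks. For MR CORT it was found at 5 of 12 peaks (41.7%, 19.3% to 68.0%) and at 39.9% of the whole list. In windows 1000 bp from the summits the corresponding shares were 14.6% around GR peaks and 15.2% around MR peaks.

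The first comparison asked how many receptor genes were reached under each treatment. After vehicle neither receptor reached any of them, where 0.0820% of all protein-coding genes were reached by GR and 0.0775% by MR. After CORT, GR reached 4 of the 42 (9.52%, 3.77% to 22.1%) and MR reached 6 (14.3%, 6.72% to 27.8%). Of all protein-coding genes, 17.7% were reached by GR and 20.5% by MR, values inside both intervals. After washout, GR reached none, which allows a share of up to 8.38%, beside 0.670% of all protein-coding genes. MR reached 3 (7.14%, 2.46% to 19%) beside 9.41% of all protein-coding genes. Binding too weak for a list's depth and cut-off would not be seen, so a gene without a peak is not shown to be unbound.

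Receptor genes are long, and long genes are reached more often. The 42 genes had a median length of 130 kb, from 6.48 kb for Grin3b to 922 kb for Grm7, where the median protein-coding gene spans 17.4 kb. Among all protein-coding genes, the share with a GR CORT peak climbed from 6.79% in the shortest of 10 length classes to 39.7% in the longest, and the share with an MR CORT peak from 7.29% to 47.3%. The longest class, of genes of at least 110 kb, held 22 of the 42 receptor genes. In it, GR reached 1 receptor gene (Gria2) and MR reached 3 (Gria1, Gria2 and Grik3).

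**Figure D1:**
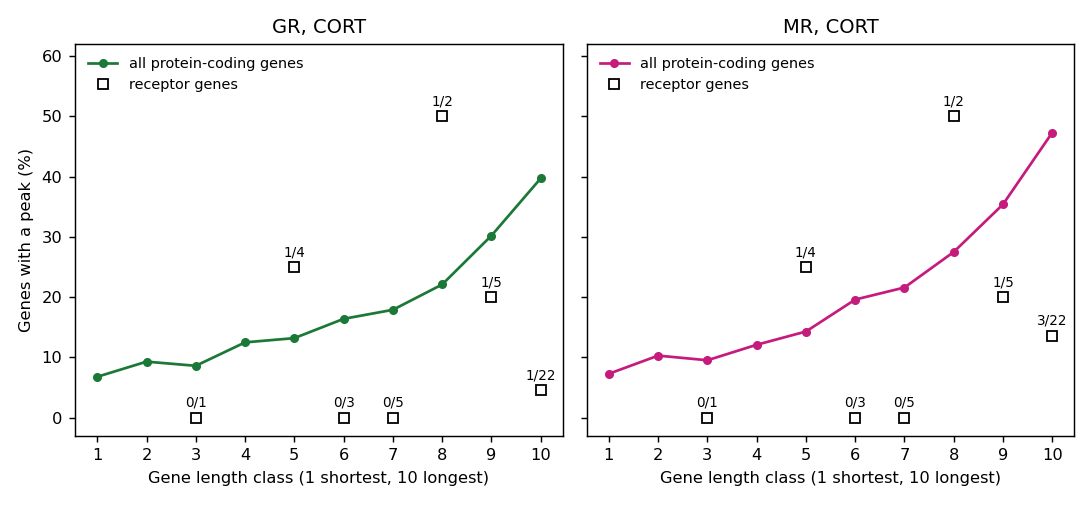
Percentage of genes with a CORT peak in the gene or within 5 kb (vertical axis) by gene length class (horizontal axis, 10 classes with about the same number of protein-coding genes), for GR and MR. The line joins all protein-coding genes and squares give the receptor genes with their number reached of their number in the class; the longest class stands at 1 of 22 for GR and 3 of 22 for MR, below the line at 39.7% and 47.3%.

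Averaging the class shares with the weights of the 42 genes gives the share that protein-coding genes of these lengths showed. Standardised in this way, 30.2% were reached by GR after CORT, which corresponds to 12.7 of 42 genes where 4 were found. For MR after CORT the standardised share was 35.9%, or 15.1 genes where 6 were found. For MR after washout it was 20.1%, or 8.44 genes where 3 were found, and for GR after washout 1.45%, or 0.608 genes where none was found. For GR and MR after CORT and MR after washout, the standardised share lay above the upper end of the interval of the receptor genes. Such an interval treats the 42 genes as independent. Several are neighbours, such as Gabrg1, Gabra2, Gabra4 and Gabrb1 on chromosome 5, so the intervals may be too narrow. Taking GC content as well as length gave 26.7% and 33.1% after CORT, still above those intervals, and 17.4% for MR after washout, inside it. The MR washout share also lay inside the interval with summits in the gene alone (18.6%), with 5 length classes (17.9%), and with a −log10 q of at least 5, where 12.7% stood beside 2 receptor genes (4.76%, 1.32% to 15.8%). At that −log10 q, GR reached 3 receptor genes after CORT (7.14%, 2.46% to 19%) and the standardised share was 18.9%, inside the interval.

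**Figure D2:**
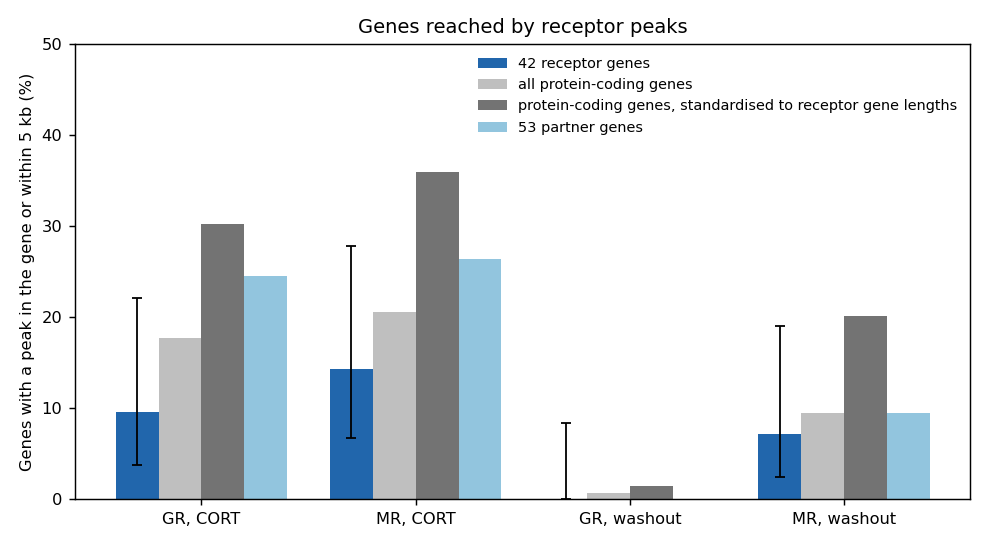
Percentage of genes with a peak in the gene or within 5 kb (vertical axis) in the 4 lists after CORT and washout; no receptor gene had a vehicle peak. Bars show the 42 receptor genes with 95% Wilson intervals, all protein-coding genes, protein-coding genes standardised to the receptor genes' lengths, and 53 partner genes of glutamate and GABA signalling; the receptor genes stand at 9.52% for GR and 14.3% for MR after CORT beside standardised shares of 30.2% and 35.9%.

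Among the longest genes the difference was large. Of the 19 receptor genes of at least 200 kb, GR reached none after CORT and MR reached 2 (10.5%), Gria1 and Grik3, whereas of all 998 protein-coding genes of that length GR reached 42.8% and MR 50.1%. Grm7 and Grm8, presynaptic metabotropic receptor genes of 922 kb and 860 kb, and Grid1, a delta receptor gene of 763 kb, had no peak in any of the 6 lists. The nearest MR CORT summit lay 790 kb from Grm7, 474 kb from Grm8 and 275 kb from Grid1.

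Counted by sequence, the genes with their 5 kb flanks covered 10.5 Mb and held 7 GR and 12 MR peaks after CORT and 3 MR peaks after washout. That was 0.665 GR and 1.14 MR peaks per Mb after CORT, where protein-coding genes as a whole held 6.07 and 8.32. After washout MR stood at 0.285 peaks per Mb beside 2.69. For genes of at least 200 kb, MR peaks after CORT stood at 0.331 per Mb in receptor genes and at 6.82 per Mb in all protein-coding genes. Files of peaks give no read depth, and neither do the input lists, which hold calls and not counts of reads. MACE border pairs, which are stretches between opposite-strand exonuclease stops, were listed in input at 0.665 to 0.950 per Mb of receptor genes and at 1.90 to 2.36 per Mb of all protein-coding genes. The part of this input difference in the peak counts was not tested, and neither transcription nor chromatin state of these genes was measured here.

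**Figure D3:**
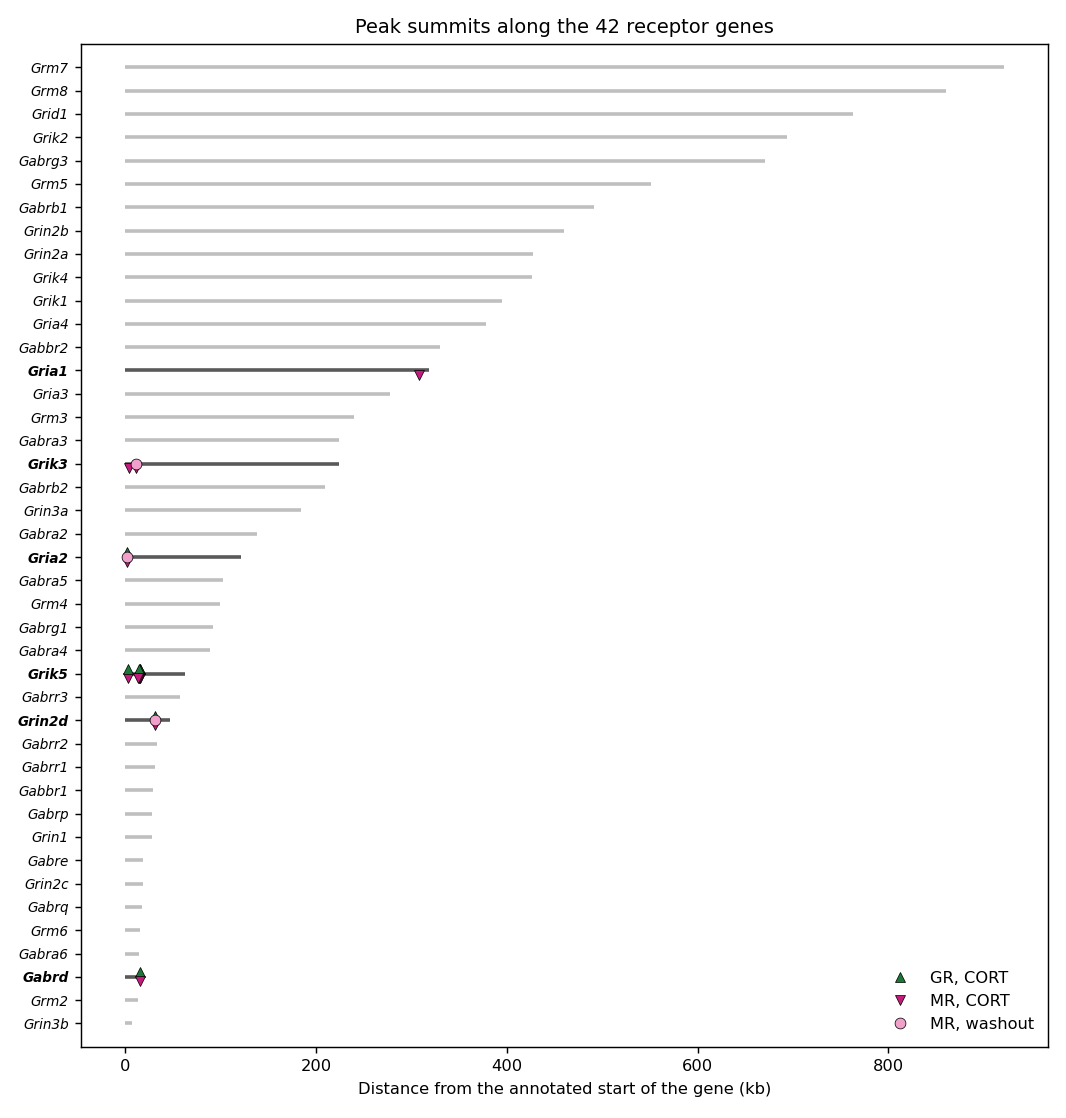
The 42 receptor genes drawn to scale from their annotated start (horizontal axis, kb), ordered by length, with the summits of GR CORT, MR CORT and MR washout peaks. Dark bars in bold are the 6 genes with a peak. Gria2, Grik3 and Grik5 have summits within 5 kb of the start, while other summits of Grik3 and Grik5 lie further in. The 13 longest genes carry none.

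Among AMPA receptor genes, Gria2 had the strongest GR peak of all 42 genes. Gria2 encodes GluA2, the subunit that keeps AMPA receptors largely impermeable to calcium, and its single site (chr3:80801125-80801331) lay 1644 bp downstream of the annotated start. It falls in an intron of the coding transcripts and in an exon of a non-coding transcript. The −log10 p against input was 18.7 for GR after CORT, rank 480 of 10602 peaks and so in the top 4.53%. For MR after CORT it was 12 (rank 3406 of 14638, top 23.3%) and for MR after washout 10.4 (rank 1810 of 4885, top 37.1%), and no peak was listed after vehicle or for GR after washout. Significance of this kind grows with depth, so it ranks peaks within a list and does not compare binding between receptors or treatments. The GRE-like match of Gria2 printed above lay inside the peaks of all 3 lists, centred 18 bp from the GR summit.

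Gria1 encodes GluA1, the subunit whose trafficking is a main route of synaptic potentiation. It had an MR CORT peak of −log10 p 12.5 (top 21.5%) at chr11:57319528-57319567 and no peak in any other list. This intronic site lay 308158 bp into the gene, near its 3′ end, and the nearest GR CORT summit to the gene was 475 kb away. Gria3 and Gria4, which encode the remaining AMPA subunits, had no peak, and the nearest MR CORT summits lay 3596 kb and 886 kb from them. For the 4 AMPA genes, 1 reached by GR and 2 by MR after CORT stood beside 1.59 and 1.89 genes at their lengths.

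Grik5 held more peaks than any other receptor gene, with 4 GR and 6 MR peaks after CORT and none after vehicle or washout. It encodes GluK5, a high-affinity kainate subunit that forms channels with other kainate subunits. Sites 1, 2 and 3 of its 5 sites lay side by side in intronic sequence, chr7:25056954-25057768, about 15 kb from the start. Their GR −log10 p was 9.99 at site 1 and 9.29 at site 2, with site 3 just above site 1, and their MR −log10 p was 7.83 at site 1 and 13.4 at sites 2 and 3. Repeat sequence, as masked in the assembly, took up 75 of the 204 bases of site 3 and 23 of the 181 bases of site 1.

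Site 4 of Grik5, at chr7:25058871-25058908, was listed for MR alone, at −log10 p 9.17. Site 5, at chr7:25069608-25069865, was 2533 bp from the start and was also within 5 kb of Zfp574, a neighbouring zinc finger gene. It held the second strongest GR peak at receptor genes (−log10 p 14.2, top 11%), while its MR peak, at 4.97, was among the weakest of the MR CORT list (rank 14458 of 14638). The order of the sites thus differed between the lists, with site 5 first for GR and sites 2 and 3 first for MR. No Grik5 peak of either receptor remained listed after washout.

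Grik3, which encodes the low-affinity kainate subunit GluK3, was reached by MR and not by GR in any list. Its first site (chr4:125494426-125494459), 3729 bp from the start, had an MR CORT peak of −log10 p 7.83. An MR CORT border pair, the only one of any receptor list in the 42 genes, lay 17 bp from this peak at chr4:125494476-125494524. The GR CORT list of border pairs held 139 pairs beside 3285 for MR and may be incomplete, so nothing is read from the lack of a GR pair here. The second site (chr4:125501404-125501504), 10771 bp from the start, had an MR CORT peak of −log10 p 6.54 (top 79.5%) and an MR washout peak of 9.57 (top 46.7%). Both MR CORT peaks of Grik3 fell away when a −log10 q of at least 5 was required, and its washout peak passed. It is also within 5 kb of the pseudogene Ftl2-ps and the microRNA gene Mir692-2, which lie in Grik3 and which it does not overlap. Grik1, Grik2 and Grik4 had no peak. For the 5 kainate genes, 1 reached by GR and 2 by MR after CORT stood beside 1.89 and 2.25 genes at their lengths.

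Of the 7 NMDA receptor genes, Grin2d alone was reached, by both receptors after CORT, beside 1.84 genes for GR and 2.20 for MR at their lengths. It encodes GluN2D, a subunit of slowly closing NMDA receptors that is prominent early in development. Its intronic site, chr7:45847508-45847668, 30808 bp from the start, had a GR CORT peak of −log10 p 9.22 (top 44.9%), an MR CORT peak of 13.9 (top 16.1%, the strongest MR peak at the 42 genes) and an MR washout peak of 7.14 (top 81.7%). The washout peak fell away when a −log10 q of at least 5 was required. Grin1, the subunit that every NMDA receptor needs, had its nearest MR CORT summit 52.5 kb away, and Grin2a, Grin2b, Grin2c, Grin3a and Grin3b had no peak either. Grin3b and Grin2c came closest to the 5 kb limit, with a GR CORT summit 8.68 kb from Grin3b and an MR CORT summit 11.8 kb from Grin2c.

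None of the 7 metabotropic glutamate receptor genes, which range from 13.0 kb for Grm2 to 922 kb for Grm7, was reached by either receptor under any treatment. At their lengths, the protein-coding shares correspond to 2.15 genes for GR and 2.53 for MR after CORT. The nearest CORT summits among them belonged to Grm3, at 62.4 kb for GR and 62.6 kb for MR.

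On the GABA side, 1 of 18 genes was reached after CORT by either receptor, where the standardised shares correspond to 4.82 genes for GR and 5.72 for MR. That gene was Gabrd, whose delta subunit marks the extrasynaptic GABA-A receptors of tonic inhibition. Its site (chr4:155382498-155382691) lay beyond the 3′ end of the gene, with the GR summit 2.34 kb and the MR summit 2.42 kb away, so the gene was reached through its flank and not through its body. The −log10 p was 8.47 for GR (top 61.3%) and 11.4 for MR (top 29.0%), and no washout peak was listed. All 5 alpha genes, all 4 beta and gamma genes and all 3 rho genes in the list lacked peaks, as did Gabre, Gabrp and Gabrq. Gabbr1 and Gabbr2, whose products pair to form the GABA-B receptor, had their nearest MR CORT summits 17.0 kb and 71.9 kb away. For the 17 ionotropic glutamate receptor genes the counts were 3 for GR and 5 for MR beside standardised counts of 5.71 and 6.81. No test of the difference between the transmitter classes was made.

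**Figure D4:**
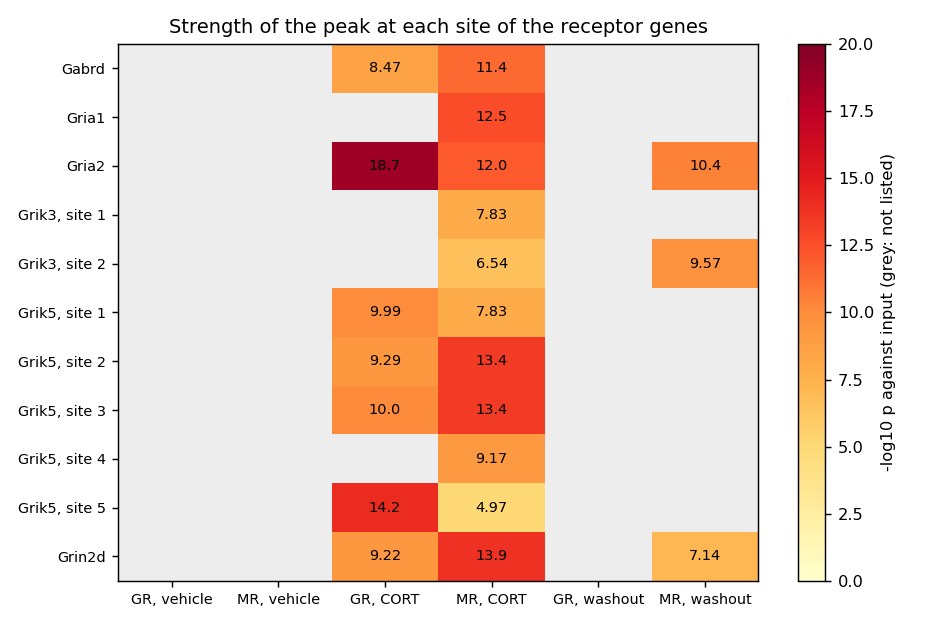
Strength of the peak, as −log10 p against input (colour and printed value), at each of the 11 sites (rows) in each of the 6 lists (columns); grey means not listed, and where a list had 2 peaks at a site the stronger is shown. Vehicle and GR washout columns are empty, 7 sites carry both receptors after CORT, and Gria2, Grik3 site 2 and Grin2d keep an MR peak after washout.

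GR peaks at the receptor genes coincided with MR peaks. After CORT, 7 sites carried both receptors and 4 carried MR alone, and none carried GR alone. Each of the 7 GR CORT peaks shared 1 bp or more with a peak of the MR CORT list (100%, 64.6% to 100%), beside 61% of the whole GR list. In the other direction, 8 of 12 MR peaks overlapped a GR peak (66.7%, 39.1% to 86.2%), beside 47.6% of the whole MR list, which is inside the interval. With summits required to lie within 50 bp of each other, 42.9% of the GR peaks and 25.0% of the MR peaks at these genes still matched, beside 45.5% and 33.0% of the whole lists. With a −log10 q of at least 5, 4 of 6 GR peaks at these genes overlapped an MR peak (66.7%), beside 64.9% of the whole list. The higher share of overlapped GR peaks at these genes was thus not seen with the summit or the −log10 q setting. With an overlap of 50% of the shorter peak required, 6 of 7 GR peaks matched (85.7%, 48.7% to 97.4%). The whole list then stood at 56.7%, lower but inside the interval. The 7 GR peaks include 4 of Grik5, so the figure rests largely on that gene.

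After washout, 3 of the 12 MR CORT peaks still overlapped an MR peak (25.0%, 8.89% to 53.2%), close to the 24.6% of the whole MR list. By gene, 3 of the 6 genes reached by MR after CORT were reached after washout, beside 1872 of 4495 protein-coding genes (41.6%). No GR CORT peak at these genes overlapped a GR washout peak (up to 35.4%), and 2.13% of the whole GR CORT list did. The nearest GR washout summit to any of the 42 genes was 623 kb away. Gria2 and Grin2d thus carried both receptors after CORT and MR alone after washout.

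GRE-like sequence itself was no rarer per Mb in receptor genes than in protein-coding genes as a whole. Matches with at most 1 mismatch numbered 82 in the genes and their flanks, or 7.79 per Mb, beside 7.28 per Mb in all protein-coding genes. At least 1 such match was present in 23 of the 42 genes, and 20 of these had no peak. Of the 19 genes without such a match, 16 had no peak. Most genes with a match were in the longest length class, and most without were in shorter classes. Among all protein-coding genes the longest class was reached most often, and these counts were not adjusted for length, so they are not a like comparison. Grm7 contained 11 matches, Grm8 contained 7, Gria1 and Gabrg3 contained 6 each, and the single match that lay within 100 bp of a summit was that of Gria2. This was 1.22% of the 82 matches for GR after CORT (0.216% to 6.59%), beside 1.43% of the matches in all protein-coding genes. For MR after CORT the same match gave 1.22% beside 2.27%. In the other direction, Grik5, Grin2d and Gabrd had peaks and no such match anywhere in the gene or its flanks.

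The genes with and without peaks also differed in length and base composition. The 6 with a peak had a median length of 91.9 kb and a median GC content of 50.5%, and the 36 without had 161 kb and 40.7%. Gria2, at 36.8% GC, was an exception among the 6. Measured to the nearest summit, the 42 genes stood at a median of 286 kb for GR and 208 kb for MR after CORT, where all protein-coding genes stood at 101 kb and 75.6 kb.

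**Figure D5:**
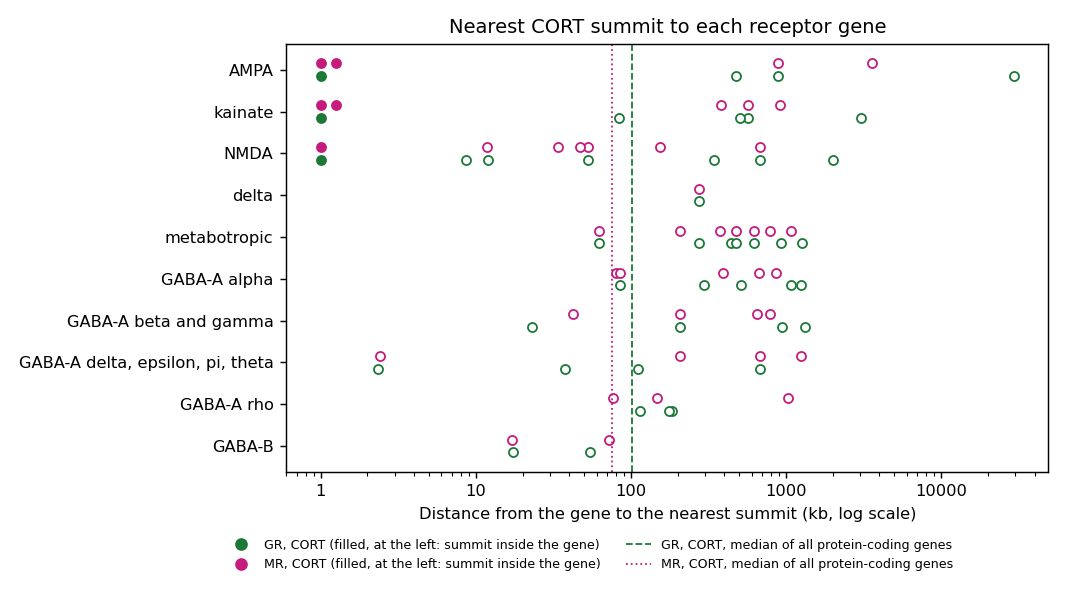
Distance from each receptor gene to the nearest CORT summit (horizontal axis, kb, log scale) by receptor family, for GR and MR. Filled points at the left are genes with a summit inside them, the Gabrd points at 2.34 kb and 2.42 kb lie within the 5 kb flank, and vertical lines mark the medians of all protein-coding genes, 101 kb for GR and 75.6 kb for MR.

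Genes that work with these receptors were reached at shares nearer to those of genes of their length. Of 53 such partner genes, GR reached 13 after CORT (24.5%) and MR reached 14 (26.4%), beside 26.0% and 30.7% for protein-coding genes standardised to their lengths. MR after washout reached 5 (9.43%, standardised 15.8%), and GR after washout and both receptors after vehicle reached none. Among 18 scaffold genes GR reached 5, which were Shank1, Dlg2, Dlg4, Grip1 and Gphn, and MR reached the same 5 together with Dlg3, Homer2 and Gabarapl1, beside 4.90 and 5.78 genes at their lengths. Dlg4 encodes PSD-95, the main organiser of the excitatory postsynaptic density, Grip1 a protein that binds AMPA receptor tails, and Gphn gephyrin, which anchors GABA-A and glycine receptors. Among 17 auxiliary subunit genes each receptor reached 4, with the AMPA receptor partners Cacng3 and Shisa9 reached by both, beside 4.67 genes for GR and 5.54 for MR at their lengths. Of the 6 synthesis and breakdown genes, GR reached Glul (glutamine synthetase), Gad2 (GABA synthesis) and Abat (GABA breakdown), and MR reached Gad2 and Abat, beside 1.38 and 1.60 genes at their lengths. Of 12 transporter genes GR reached Slc32a1, the vesicular GABA transporter, and MR none, beside 2.81 and 3.35 genes at their lengths. These partner genes were chosen with earlier results of the data known, and the difference between them and the receptor genes was not tested.

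The genes of the transfected receptors, Nr3c1 (GR) and Nr3c2 (MR), each carried 8 to 10 vehicle peaks in each list. Both had peaks in all 6 lists, so they cannot tell a GR list from an MR list or one treatment from another, and the labels were not checked by them. The GR lists held 64, 10602 and 246 peaks for treatments i, ii and iii, and the MR lists 73, 14638 and 4885. The lowest −log10 p of a listed peak ranged from 4.35 to 6.73 across the lists, so the bar for listing a weak site differed between them. None of the 11 sites overlapped a border pair of any input list.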

How the data were processed

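ChIP-nexus peaks of GR and MR and the border pairs of both receptors and input were analysed. Per the paper's methods, the authors aligned reads to GRCm38/mm10 with Bowtie 2, removed duplicates by random barcode, required a mapping quality above 20, and ran MACS2 2.1.1.20160309 (version per the labels) on the 3 combined replicates against input at a false discovery rate of 0.05. The authors called border pairs with MACE. The deposited −log10 values are those of p and q. The −log10 q stands under a fold enrichment heading, the summit offset under a q-value heading and the score under a length heading. The deposited score of a peak is derived from its −log10 q. The p-value the authors deposited for a border pair was not used here, and neither was the score. Neither kind of file holds read counts, so they do not give the depth behind each list. The main text of the paper gives uniquely mapped reads as a range over the treatments.

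The 42 genes, their families and the 53 partner genes were chosen with earlier results of these data known. Summits were placed on GENCODE M21 genes with a flank of 5 kb. Shares were standardised by averaging those of 10 length classes with the receptor genes' weights. Peaks overlapping by 1 bp were joined into sites. Ranks within a list were by −log10 p, with ties sharing a rank. GRE-like matches allowed 3 mismatches within 100 bp of a summit, and 1 mismatch when searched across whole genes. Genes were named for the most or strongest CORT peaks, any vehicle or GR washout peak, the most MR washout peaks, a CORT summit within 5 kb of the start, or length (the longest without and the shortest with a CORT peak). Grin3b, Grin2c, Grm3, Gabbr1 and other genes without peaks were named after their values were seen. No test was made, since there is 1 list per condition. Alternatives changed the flank, the use of the summit, the −log10 q, the overlap, the mismatches, the window and the classes. Scripts were tested on simulated data and used Python 3.11.15, numpy 2.4.6, pysam 0.24.0, samtools 1.23.1 and matplotlib 3.10.9.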

Additional observations from a re-analysis of the deposited data

How the results depend on the processing

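The count of receptor genes reached moved by at most 1 gene in each of the 6 lists when the flank was left out or widened to 10 kb, when any part of the peak could place it, and when a −log10 q of at least 5 was required. That threshold lowered the share of all protein-coding genes to 10.2% for GR after CORT, 0.315% for GR after washout and 5.63% for MR after washout, and the standardised shares to 18.9%, 0.670% and 12.7%. It also removed the GR peak of Gabrd, both MR CORT peaks of Grik3, 2 of the 6 MR CORT peaks of Grik5 and the MR washout peak of Grin2d. Without the flank, Gabrd had no peak, and 0.0501% of protein-coding genes had an MR vehicle peak. The standardised vehicle shares moved to 0.0814% for GR without chromosome 8, which holds none of the receptor genes, and to 0.286% for MR over the 200 genes nearest in length. With summits within 50 bp, 42.9% of GR CORT peaks at the receptor genes met an MR CORT peak and 25.0% the reverse, beside 45.5% and 33.0% of the whole lists. GRE-like matches were found at 85.7% of the GR peaks at these genes with 4 mismatches allowed (79.0% of the whole list, 54.8% of windows 1000 bp away) and at 8.33% of the MR peaks with 2 (11.5% and 1.79%). The alternatives of GC content, nearest length and chromosome 8 were chosen after seeing the data. No paired analysis was possible because the replicates were combined into a single list per condition, and for the same reason no replicate could be left out. Depth limits which weak sites were listed, and no file used here gives it.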
